A study of Peromyscus leucopus and Peromyscus maniculatus with 24 samples.

Results

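The genes described here are 47 genes of microglia and of the complement system, taken by symbol from a list of genes known for these functions. They were sorted by role into 23 homeostatic genes, 19 genes of activation and 5 complement genes, and matched to the deposited tables ignoring case. The table of P. leucopus held 43 of them among 25252 named genes, and the table of P. maniculatus held 41 of them among 16899, so that 38 were measured in both species and 46 in at least 1.

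Microglia are the resident macrophages of the brain, which survey the tissue through receptors for purines, chemokines and colony stimulating factors and clear debris and synapses. In the resting state they express a homeostatic set of receptors and transcription factors, and in aged or damaged tissue they take on an activated profile with lysosomal proteases, lipid handling proteins and the Trem2-Tyrobp receptor complex. C1q, the recognition molecule that starts the classical complement pathway, is made in the brain chiefly by microglia, and it is assembled from the chains encoded by C1qa, C1qb and C1qc. C3 is the central protein of the cascade on which all its pathways converge.

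Brain RNA was sequenced from 24 deer mice, with 1 library for each animal. The groups were 6 young P. leucopus (LL stock) of 7 months, 6 old P. leucopus of 28 months, 6 young P. maniculatus bairdii (BW stock) of 7 months and 6 old P. maniculatus of 25 to 29 months. Both stocks are outbred and descend from animals caught in the wild, the BW stock was bred as a closed colony, and the labels name no treatment. The sex of the animals and the part of the brain are not stated in the labels used here, and because the tissue was bulk brain, fewer cells of a type and less RNA per cell cannot be told apart. A library of P. leucopus held from 10241267 to 19461818 counts on named genes, and a library of P. maniculatus from 5766964 to 8804417. Old animals 3 and 4 of P. maniculatus were more alike than any other pair of libraries. Their chi-square was 1.46 per gene, against 8.82 for the next pair. They differed beyond counting noise, but this cannot tell 2 animals from 2 libraries of 1 animal. They were kept as 2 animals because the labels name 2, and were counted as 1 animal in an alternative.

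Microglial RNA was present in every brain. In P. leucopus 42 of the 43 genes had at least 1 count, and in P. maniculatus 40 of 41. Trem2, the lipid receptor of activated microglia, had 0 counts in all 12 P. leucopus, which allows a level of up to 0.154 CPM (the counts-per-million scale, a count over the total of its library) in the deepest library and 0.293 CPM in the shallowest, from 3 counts of the total and for counting error only. Its partner Tyrobp was found in every one of these animals, and whether the gene model on which Trem2 was counted captures its reads was not tested, so the 0 is not a measure of its absence. In P. maniculatus Trem2 was found in every animal, between 2.75 and 10.1 CPM. Siglech, a lectin of homeostatic microglia, had 0 counts in all 12 P. maniculatus. For counting error only, that allows up to 0.341 CPM in the deepest library and 0.520 CPM in the shallowest. Whether its gene model captures its reads was not tested either, so this 0 is not a measure of its absence. Siglech, Apbb1ip, Itgax and C4b were not analysed in P. leucopus, nor Itgam, Cd33, Cd68, Cd14, C3 and C4b in P. maniculatus, so that C4b, the remaining complement gene, has no value here.

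Levels between genes were compared as CPM per kilobase of the counted gene model, as the median over the 12 animals of a species. In P. maniculatus the C1q chains stood near the top, at 121 CPM per kilobase for C1qc, 99.0 for C1qb and 90.1 for C1qa, and the tetraspanin gene Cd9, which many cell types of the brain express, was the highest at 155. The signalling adaptors Fcer1g and Tyrobp followed at 52.5 and 49.2, then the cytoskeletal marker Aif1 (Iba1) at 46.4 and Csf1r, the receptor that keeps microglia alive, at 35.4. In P. leucopus Cd9 was again the highest at 42.0 CPM per kilobase, followed by C1qb at 28.8, C1qa at 21.8, C1qc at 18.3 and Csf1r at 16.7. P2ry12, the purine receptor that marks homeostatic microglia, stood at 13.6 and C3 at 13.4. The species were not compared in level, because 40 of the 41 genes of P. maniculatus were counted on models whose length is a multiple of 3, as a coding length without untranslated ends would be, against 13 of 43 in P. leucopus. The cytokine genes stood near the limit of detection. Il1b and Tnf, the classical cytokines of activated microglia, did not exceed 0.804 and 0.219 CPM in any P. leucopus or 0.459 and 0.153 CPM in any P. maniculatus, and Cst7 and Clec7a, markers of disease-associated microglia, were also under the filter on low counts in both species. Without the filter these 4 genes had adjusted p-values of 0.338 (Clec7a) to 0.981 (Tnf) in P. leucopus and 0.518 (Clec7a) to 0.997 (Tnf) in P. maniculatus in edgeR.

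**Figure D1:**
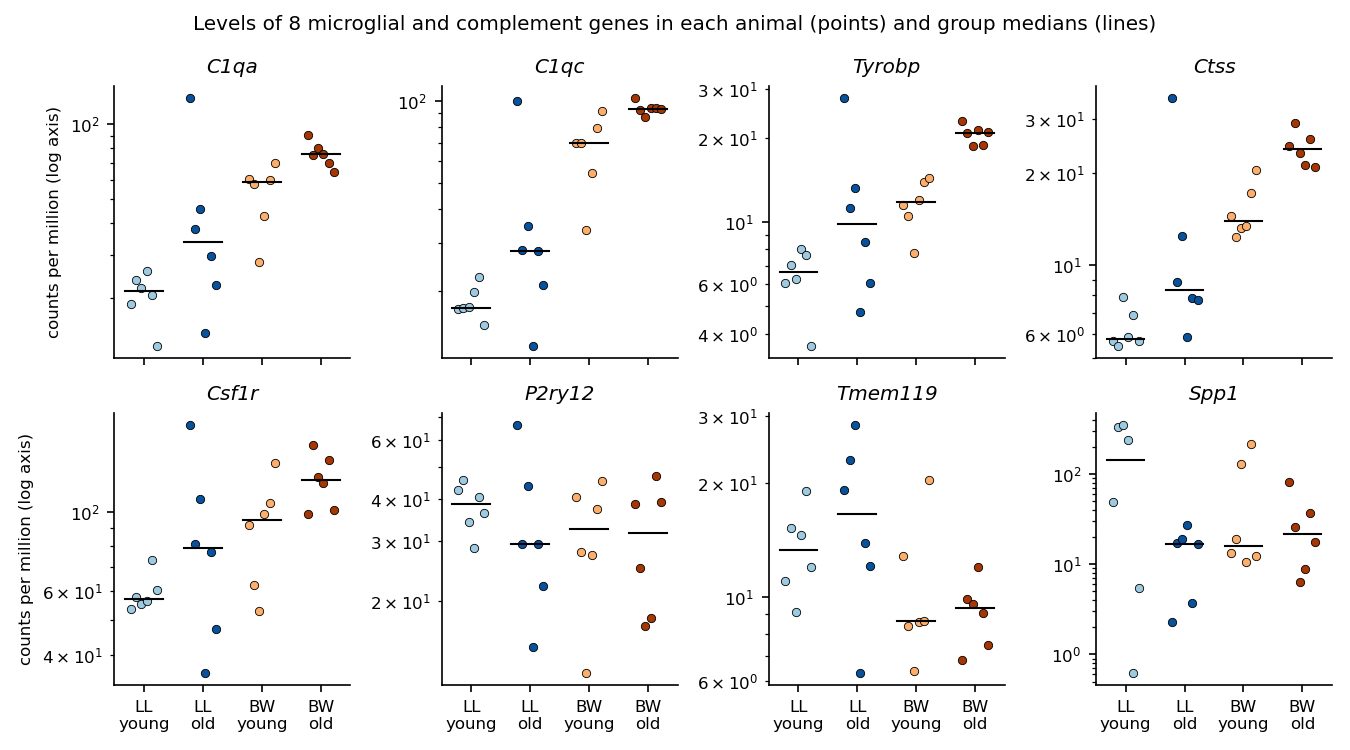
Levels of 8 genes in each animal, in counts-per-million (CPM) on log axes, with one panel for each gene, points for the 6 animals of a group and lines for the group medians. In P. maniculatus (BW) every old animal lay above every young animal for Tyrobp and Ctss, in P. leucopus (LL) old animal 1 stood above the other animals for C1qa, C1qc and Ctss, and P2ry12 and Tmem119 overlapped between ages in both species.

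In P. maniculatus the C1q chains, Trem2, Tyrobp, the Fc receptor gamma chain and cathepsin S had higher levels in old than in young brains. None of these differences passed the adjusted threshold in edgeR. P2ry12, Cx3cr1 and Tmem119, which mark homeostatic microglia, had log2 fold changes from -0.18 to -0.012. Of all 20 homeostatic genes tested, 14 were above 0, where 50% of all genes were, and their median was 0.28. No gene passed the threshold of an adjusted p under 0.05 in edgeR's quasi-likelihood test with Benjamini-Hochberg adjustment, in any of 12384 genes tested (0% called), so none of the 36 microglial and complement genes that passed the filter on low counts did. At an unadjusted p under 0.05, 13 of the 36 were higher in old animals, where 4.94% of all genes were, and 0 were lower, where 5.39% of all genes were. Each old animal lay above each young animal for 7 of the 36, against 0.275% of all genes, and for none of the 36 below, against 0.105%. DESeq2 called 4 of the 36 higher at an adjusted p under 0.05, against 0.145% of all genes, and 0 lower, against 0.0161%. The median log2 fold change, old over young, was 0.37 over the 36 genes and 2.0e-05 over all genes tested, and 26 of the 36 were above 0, against 50% of all genes.

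Tyrobp, which encodes the adaptor through which Trem2 signals, shared the lowest adjusted p of the whole P. maniculatus table. Its levels ran from 7.73 over a median of 11.8 to 14.4 CPM in young animals and from 18.7 over 20.9 to 23 CPM in old ones. The groups did not overlap, and the gap between them was wider than the standard deviation of either, 2.42 CPM in young and 1.62 CPM in old animals. The log2 fold change was 0.88 ± 0.16 (SE, n = 6 and 6), with an adjusted p of 0.304 in edgeR and an exact permutation p of 0.00216, which is the smallest that 6 against 6 animals can give and is not adjusted. In DESeq2 Tyrobp had an adjusted p of 0.00095, and over its 18 alternatives the adjusted p lay between 0.00095 and 0.611. Trem2 itself ran from 2.75 over 3.50 to 6.39 CPM in young and from 4.68 over 6.33 to 10.1 CPM in old animals, with overlap between the groups, a log2 fold change of 0.79 ± 0.26 and an adjusted p of 0.467 in edgeR.

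Among the genes of activation in P. maniculatus, 6 of 13 were higher at an unadjusted p under 0.05, where 4.94% of all genes were, and the median log2 fold change was 0.44. Itgax, the integrin CD11c of activated microglia and dendritic cells, had the largest, at 1.52 ± 0.36 with an adjusted p of 0.465. It was low, between 0.313 and 1.60 CPM in young and between 1.91 and 4.03 CPM in old animals, and the groups did not overlap. Lgals3, galectin-3, ran from 1.95 over 3.04 to 3.96 CPM in young and from 4.04 over 6.33 to 8.38 CPM in old animals, so that the highest young animal and the lowest old animal almost met. Its log2 fold change was 1.09 ± 0.23, with an adjusted p of 0.438 in edgeR and 0.0282 in DESeq2. Ctss and Fcer1g are described because they also separated the groups, a choice made after their values were seen. Ctss, the lysosomal protease cathepsin S, ran from 12.4 over 14 to 20.3 CPM in young and from 20.8 over 23.9 to 29.0 CPM in old animals, with a log2 fold change of 0.73 ± 0.15, an adjusted p of 0.378 in edgeR and 0.00747 in DESeq2. Fcer1g had a log2 fold change of 0.76 ± 0.19, with every old animal at 18 CPM or above and every young animal at 16.6 CPM or below.

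Other genes of activation did not follow. Axl, a receptor for dying cells, overlapped almost entirely between ages in P. maniculatus, at a log2 fold change of -0.03 ± 0.20. Lpl, lipoprotein lipase, had a log2 fold change of -0.38 ± 0.31, the Toll-like receptor gene Tlr2 one of 0.35 ± 0.31, and Tlr4 one of -0.50 ± 0.50, each with overlapping groups. The value of Tlr4 rested on young animal 3, at 23.3 CPM where the other 5 young animals did not exceed 5.49 CPM, and without that animal the log2 fold change was 0.31. Spp1, which encodes osteopontin and is made by several cell types besides activated microglia, had the lowest log2 fold change at -1.15 ± 0.81, with young animals between 10.6 and 215 CPM and old ones between 6.39 and 81.1 CPM. The spread of Spp1 within each age was wider than the difference between ages. Clec7a, a receptor for fungal glucans that is a marker of disease-associated microglia, stayed under the filter with 5 counts over all young and 27 over all old animals. Its levels did not exceed 0.556 CPM in young or 0.898 CPM in old animals, with overlap and an unadjusted exact permutation p of 0.0173, and without the filter its log2 fold change was 2.22 with an adjusted p of 0.518 in edgeR.

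The C1q chains of P. maniculatus lie side by side on chromosome 2 of HU_Pman_2.1, within bases 151689214 to 151704631 on the minus strand. C1qa ran from 28.0 over 58.5 to 69.8 CPM in young and from 64.3 over 75.9 to 90.4 CPM in old animals, with a log2 fold change of 0.59 ± 0.19 and an adjusted p of 0.467 in edgeR. C1qb ran from 30.1 over 57.4 to 77.5 CPM and from 73.4 over 82.9 to 89.3 CPM, with a log2 fold change of 0.63 ± 0.19. C1qc ran from 33.6 over 70.2 to 91.7 CPM and from 87.1 over 93.5 to 102 CPM, with a log2 fold change of 0.56 ± 0.19. For each chain the groups overlapped only between the highest young animal and the 1 or 2 lowest old animals, and the old animals lay closer together than the young. The standard deviation of C1qc was 4.85 CPM in old and 20.3 CPM in young animals. Young animal 3 had the lowest sum of the C1q chains, 91.7 CPM. Without it the median log2 fold change of the chains was 0.46, in place of 0.59. The exact permutation p was 0.00433 for C1qa and C1qc and 0.00649 for C1qb, unadjusted.

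The homeostatic genes of P. maniculatus had log2 fold changes from -0.22 (Olfml3) to 1.09 (Ly86). Their median was 0.28, and 4 of 20 were higher at an unadjusted p under 0.05, where 4.94% of all genes were. Young animal 3 had the lowest level of all 12 animals for 22 of the 36 microglial and complement genes, with a median log2 deviation of -0.60 from the mean of the young, and without it the median of the homeostatic genes was 0.13. The higher ones were Aif1, Csf1r, Ly86 and Spi1. Aif1 ran from 7.07 over 16.3 to 20.2 CPM in young and from 21 over 25.9 to 29.9 CPM in old animals without overlap, with a log2 fold change of 0.78 ± 0.21. Ly86, which encodes the partner of a Toll-like receptor homologue, had a log2 fold change of 1.09 ± 0.26 with an adjusted p of 0.465 in edgeR and 0.0445 in DESeq2, and its groups overlapped between 6.39 and 7.32 CPM. Spi1 (PU.1), the transcription factor that defines the myeloid lineage, did not exceed 9.53 CPM in young or drop under 9.59 CPM in old animals, at a log2 fold change of 0.55 ± 0.21. Csf1r had a log2 fold change of 0.49 ± 0.20 with overlap.

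P2ry12, Cx3cr1 and Tmem119, by which homeostatic microglia are usually recognised, lay within 1 standard error of 0 in P. maniculatus. In P. maniculatus P2ry12 ran from 12.3 over 32.7 to 45.2 CPM in young and from 16.8 over 31.8 to 47.0 CPM in old animals, with a log2 fold change of -0.012 ± 0.294. Cx3cr1, the fractalkine receptor, had a log2 fold change of -0.18 ± 0.25 and Tmem119 one of -0.17 ± 0.27. Sall1, the transcription factor that maintains microglial identity, had one of 0.01 ± 0.24, and Olfml3, a secreted protein of homeostatic microglia, one of -0.22 ± 0.27. Irf8, a myeloid transcription factor, lay between, at 0.35 ± 0.23. All of these overlapped between the ages. Young animal 3 had the lowest level of all 12 animals for P2ry12, Cx3cr1 and Tmem119. Over all alternatives the log2 fold change spanned -0.35 to -0.034 for Cx3cr1 and -0.30 to 0.099 for Tmem119.

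**Figure D2:**
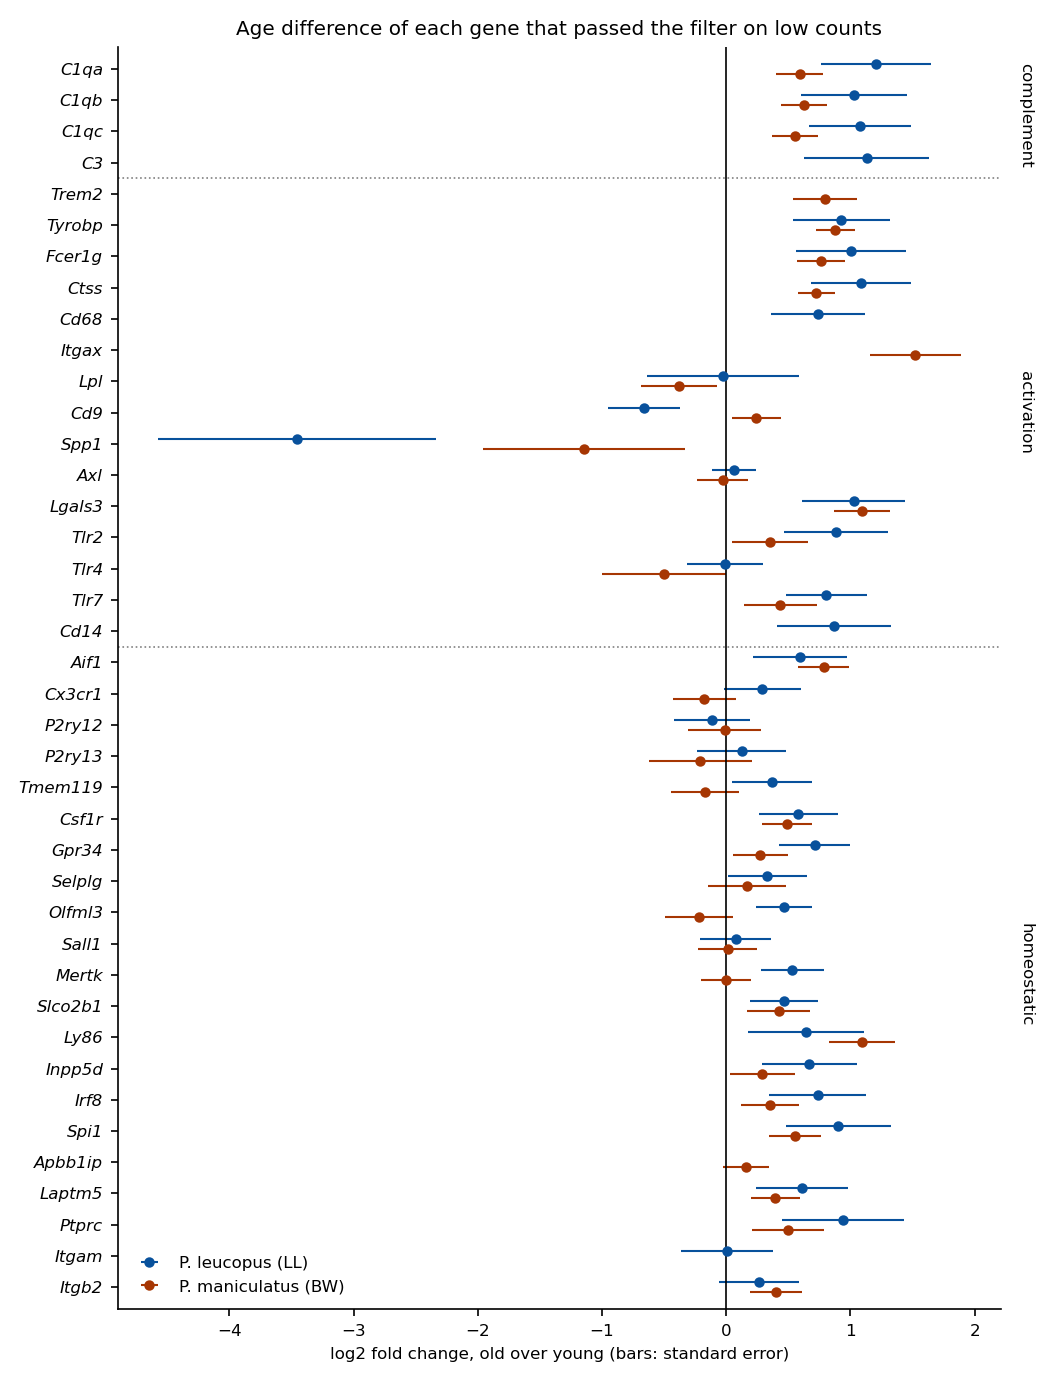
Log2 fold change, old over young, of each gene that passed the filter on low counts, with standard errors from edgeR as bars, in P. leucopus (blue) and P. maniculatus (brown), grouped by role. The complement genes lay above 0 in both species, at 0.56 to 1.21, Spp1 lay lowest in both, and the bars of P2ry12, Sall1 and Axl crossed 0 in both.

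In P. leucopus the genes leaned the same way, but a single old animal carried much of it. No gene of 14816 tested passed the threshold in edgeR (0% called), and so none of the 37 microglial and complement genes tested did. At an unadjusted p under 0.05, 10 of the 37 were higher in old animals, where 8.32% of all genes were, and 2 were lower, where 10.4% of all genes were. The 10 were Gpr34, Tyrobp, Fcer1g, Ctss, Lgals3, Tlr7, C1qa, C1qb, C1qc and C3, and the 2 were Cd9 and Spp1. DESeq2 called 0 of the 37 higher, against 1.94% of all genes, and 1 lower, Spp1, against 3.91%. The median log2 fold change was 0.61 over the 37 genes and 0.02 over all genes tested, and 32 of the 37 were above 0, against 52.2% of all genes. For none of the 37 did the ages separate without overlap, a pattern that 0.371% of all genes showed upward and 0.479% downward.

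Old animal 1 of P. leucopus had the highest level of all 12 animals for 29 of the 37 genes, and old animal 4 the lowest for 19. Taking for each animal the median deviation of the 37 genes from the mean of the young animals on a log2 scale, old animal 1 stood at 1.59, the other old animals at 0.75, 0.43, 0.27 and -0.04, and old animal 4 at -0.47. The young animals lay between -0.20 and 0.19, so that 4 of the old animals lay above the range of the young, 1 within it and 1 below it. Without old animal 1 the median log2 fold change of the 37 genes was 0.31, and 1 gene in place of 10 was higher at an unadjusted p under 0.05, where 7.47% of all genes were. Without old animal 4 the median was 0.78 and 23 genes were higher, where 9.15% of all genes were. Without 3 other animals the number also moved by more than 1.5 times. It was 5 without young animal 1, 4 without young animal 6 and 6 without old animal 3. Over all genes the numbers were 972 of 14937, 1415 of 14949 and 1319 of 14935, in that order.

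**Figure D3:**
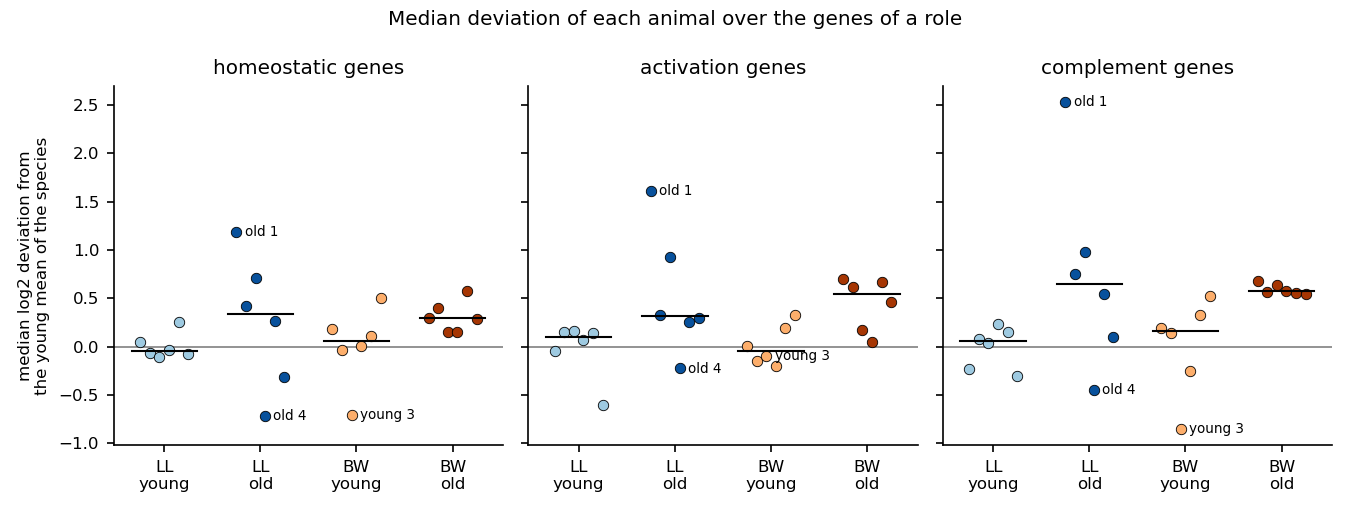
Median log2 deviation of each animal from the mean of the young animals of its species, over the homeostatic, activation and complement genes that passed the filter, with points for animals and lines for group medians. Old animal 1 of P. leucopus reached 2.53 over the complement genes, old animal 4 lay at -0.45, and the old P. maniculatus lay close together between 0.54 and 0.68.

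The 4 complement genes of P. leucopus had a median log2 fold change of 1.10, the highest of the roles. C1qa, C1qc and C1qb lie on the plus strand of a scaffold of Pero_0.1 within bases 2847699 to 2864550, in the same arrangement as in P. maniculatus. C1qa ran from 12.9 over 21.3 to 25.8 CPM in young and from 14.5 over 33.7 to 127 CPM in old animals, with a log2 fold change of 1.21 ± 0.45 and an adjusted p of 0.188 in edgeR. C1qb ran from 20.9 over 26.7 to 39.8 CPM and from 20.2 over 43.5 to 150 CPM, at 1.03 ± 0.43 on the log2 scale, and C1qc from 15 over 17.4 to 22.5 CPM and from 12.6 over 28.2 to 99.98 CPM, at 1.08 ± 0.41. The old animals spanned the whole range of the young for C1qb and C1qc, with old animal 1 far above and old animal 4 below or near the lowest young animal. C3 ran from 42.6 over 68.7 to 106 CPM in young and from 50.8 over 83.3 to 465 CPM in old animals, with a log2 fold change of 1.13 ± 0.50 and an adjusted p of 0.252. Without old animal 1 the log2 fold changes were 0.57 for C1qa, 0.42 for C1qb, 0.48 for C1qc and 0.31 for C3.

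Among the 13 genes of activation tested in P. leucopus the median log2 fold change was 0.80, with 5 higher, where 8.32% of all genes were, and 2 lower, where 10.4% of all genes were, at an unadjusted p under 0.05. Ctss ran from 5.47 over 5.76 to 7.87 CPM in young and from 5.86 over 8.33 to 34.9 CPM in old animals, at a log2 fold change of 1.09 ± 0.40 with an adjusted p of 0.189 in edgeR. It was the gene still higher at an unadjusted p under 0.05 without old animal 1, at 0.47. Tyrobp ran from 3.61 over 6.64 to 8.04 CPM and from 4.78 over 9.85 to 27.7 CPM, at 0.93 ± 0.39. Cd68, a lysosomal membrane protein of macrophages, had a log2 fold change of 0.74 ± 0.38 and Tlr2 one of 0.88 ± 0.42, while Axl, at 0.06 ± 0.18, and Lpl, at -0.03 ± 0.61, lay near 0. Clec7a, with a log2 fold change of 1.77 and an adjusted p of 0.338 in edgeR without the filter, reached 5.34 CPM in old animal 1 and at most 0.890 CPM in any other P. leucopus.

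Spp1 and Cd9 ran the other way in P. leucopus. Spp1 ran from 0.627 over 143 to 351 CPM in young and from 2.27 over 17 to 27.1 CPM in old animals. Its log2 fold change was -3.46 ± 1.12 with an adjusted p of 0.152 in edgeR and 0.0267 in DESeq2, between 0.0267 and 0.294 over its 16 alternatives, and an exact permutation p of 0.0606. Of the young animals, 4 were above every old animal, and young animal 5, at 0.627 CPM, was below all of them. Without young animal 5 Spp1 had an adjusted p of 0.0352 in edgeR, in a fit that called 963 of 14958 genes, 648 of them lower in old animals. Cd9 had a log2 fold change of -0.66 ± 0.29. All 7 markers of oligodendrocytes, which also express Cd9, were lower in old P. leucopus at an unadjusted p under 0.05, and their summed level ran from 5242 over 15380 to 19886 CPM in young and from 2694 over 3843 to 7560 CPM in old animals. The summed markers of choroid plexus ran from 17.6 over 641 to 9983 CPM and from 12.5 over 34.1 to 157 CPM, with 4 of 5 lower at an unadjusted p under 0.05. The part of these markers in the values of Spp1 and Cd9, and of the other genes, was not tested.

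The homeostatic genes of P. leucopus had a median log2 fold change of 0.50, with 19 of 20 above 0, where 52.2% of all genes were. Only 1, Gpr34, was higher at an unadjusted p under 0.05, where 8.32% of all genes were. Without old animal 1 the median was 0.21, and P2ry12, P2ry13, Itgam and Ly86 were below 0. With all animals P2ry12 was the exception below 0, at -0.12 ± 0.30. It ran from 28.7 over 38.6 to 45.5 CPM in young and from 14.6 over 29.4 to 66.3 CPM in old animals. Cx3cr1 had a log2 fold change of 0.29 ± 0.31, Tmem119 one of 0.36 ± 0.32 and Sall1 one of 0.08 ± 0.29. Csf1r ran from 53.7 over 57.3 to 73.4 CPM and from 35.7 over 79.0 to 174 CPM, at 0.58 ± 0.32, and Spi1 had one of 0.90 ± 0.42, Irf8 one of 0.74 ± 0.39 and Aif1 one of 0.59 ± 0.38. Each of these genes overlapped between ages, and for all of them but Irf8 old animals lay both above and below the range of the young.

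**Figure D4:**
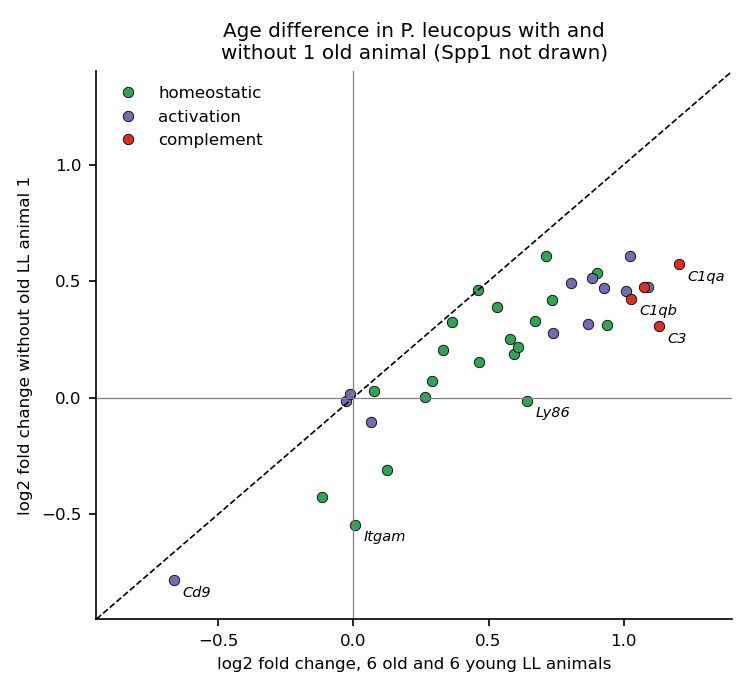
Log2 fold change, old over young, of the genes in P. leucopus with all 12 animals (horizontal) and without old animal 1 (vertical), coloured by role, with the dashed line of equal values. Most genes lie below the line, C3 moved from 1.13 to 0.31 and Itgam from 0.01 to -0.55, and Spp1, at -3.46 and -3.23, is not drawn.

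Whether the age difference itself differed between the species was tested by the interaction of species and age over the 11647 genes in both tables that passed the filter. No gene passed the threshold in edgeR (0% called), and of the 33 microglial and complement genes tested, 1 had a higher age effect in P. maniculatus at an unadjusted p under 0.05, where 7.36% of all genes had, and 0 a lower one, where 7.75% had. The 1 gene was Cd9, at a difference of 0.91 ± 0.37 on the log2 scale and an adjusted p of 0.264. The median difference over the 33 genes was -0.35 with all animals and 0.08 without old animal 1 of P. leucopus, so that its sign rested on that animal. For C1qa the difference was -0.61 ± 0.50, for Tyrobp -0.05 ± 0.43 and for P2ry12 0.10 ± 0.45.

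The genes also differed in how far they moved together from animal to animal within a group. In old P. leucopus the median Pearson's R over the 666 pairs of the 37 genes was 0.820, against 0.118 in young P. leucopus. In P. maniculatus it was 0.470 in young and 0.233 in old animals, over 630 pairs of 36 genes. Over all genes the median lay between -0.00326 and 0.0773 in the 4 groups. Spearman's correlation gave 0.771 and 0.0857 in old and young P. leucopus and 0.171 and 0.429 in old and young P. maniculatus. Each R rests on 6 animals that share their depth and scaling between genes, and no test was made. The old P. leucopus include old animal 1, highest for 29 of the 37 genes, and old animal 4, lowest for 19. The young P. maniculatus include young animal 3, lowest for 22 of the 36 genes. R was not computed without these animals, so their part in the medians was not tested.

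Ratios between genes within an animal were computed on CPM + 0.5 per kilobase, after the levels had been seen. Only without the added 0.5 would they not depend on how the library was scaled. In P. leucopus the ratio of C1qa to P2ry12 ran from 0.887 over 1.27 to 2.21 in young and from 2.44 over 2.53 to 4.67 in old animals, without overlap. The ratios of C1qc, Ctss and Csf1r to P2ry12 did not overlap either, and for C1qc the log2 difference was 1.01 with all animals and 0.89 without old animal 1. Against Tmem119 the same genes overlapped between ages in P. leucopus, the ratio of C1qa to it running from 2.01 to 4.37 in young and from 3.01 to 12.1 in old animals. In P. maniculatus the ratios of C1qb and C1qc to Cx3cr1 and of Tyrobp to Tmem119 did not overlap. The ratio of Tyrobp to Tmem119 there ran from 1.75 over 2.99 to 3.87 in young and from 4.29 over 4.996 to 7.86 in old animals, whereas Tyrobp to P2ry12 overlapped. Of 18 ratios in each species, 4 in P. leucopus and 3 in P. maniculatus did not overlap, and no test was made on them. The 4 in P. leucopus share P2ry12 as the denominator and are not independent, and all ratios to Cx3cr1 and Tmem119 overlapped in that species. How often ratios of other genes separate the ages was not computed.

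Other genes of the complement pathway ran in both directions. Of 25 further complement genes tested in P. leucopus, 7 were higher and 4 lower at an unadjusted p under 0.05, where 8.32% and 10.4% of all genes were, with a median log2 fold change of 0.31. In P. maniculatus 2 of 20 were higher and 1 lower, where 4.94% and 5.39% of all genes were, with a median of -0.05. None passed the adjusted threshold in edgeR in either species. C2, the protease that C1 cleaves, was among the higher ones in both, at 1.98 ± 0.72 in P. leucopus and 1.24 ± 0.37 in P. maniculatus. Cfb, the factor B of the alternative pathway, had a log2 fold change of 2.30 ± 1.03 in P. leucopus, and Clu, which encodes the inhibitor clusterin, one of 0.44 ± 0.14 in P. maniculatus. These genes were chosen for naming after their values were seen. Their values without old animal 1 of P. leucopus were not examined.

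Genes of interferon response and antigen presentation, which activated microglia express along with other cells, were tested as a further list. In P. leucopus 13 of 13 tested had a log2 fold change above 0, where 52.2% of all genes had, with a median of 1.14 and 3 higher at an unadjusted p under 0.05. In P. maniculatus 10 of 13 were above 0, where 50% of all genes were, with a median of 0.71 and 6 higher. For all lists here, the share of all genes at this p is 8.32% higher and 10.4% lower in P. leucopus, and 4.94% and 5.39% in P. maniculatus. Cd74, the invariant chain of class II antigen presentation, had 2.23 ± 0.74 in P. leucopus and 1.37 ± 0.28 in P. maniculatus. Of 18 further genes of the disease-associated profile tested in each species, 8 were higher and 1 lower in P. maniculatus, with Apoe at 0.62 ± 0.15, and 2 were higher and 2 lower in P. leucopus, with Apoe at 0.43 ± 0.17. Of other microglial genes 7 of 25 were higher in P. maniculatus and 2 of 26 in P. leucopus, where 2 were also lower. Toll-like receptor and cytokine genes gave 3 higher and 1 lower of 19 in P. maniculatus and 2 higher of 20 in P. leucopus, and ligands of microglial receptors 1 higher of 8 and 1 lower of 8. No gene of these lists passed the adjusted threshold in edgeR in either species. How far the values of P. leucopus in these lists rest on old animal 1 was not examined.

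Markers of other cell types were set beside these values. Macrophages at the borders of the brain share many of the genes. The summed level of the 5 listed markers in P. leucopus ran from 8.98 over 15.5 to 22.9 CPM in young and from 11 over 16.8 to 33.8 CPM in old animals, with old animal 1 the highest, and that of 7 in P. maniculatus from 5.48 over 14 to 26.1 CPM and from 6.80 over 18.7 to 29.3 CPM. Neutrophil and monocyte markers did not sum to more than 7.85 CPM in any P. leucopus or 4.68 CPM in any P. maniculatus, and T cell markers to at most 18.3 and 7.16 CPM. Old animal 1 of P. leucopus also had the highest sum of the 8 astrocyte markers, 7295 CPM, where the young animals did not exceed 5200 CPM. In P. maniculatus the oligodendrocyte markers ran from 1378 over 2953 to 5852 CPM in young and from 2149 over 2993 to 4359 CPM in old animals, and those of choroid plexus from 104 over 914 to 5359 CPM and from 606 over 2433 to 4663 CPM, with 6 of 6 above 0. Markers of neurons, and of the granule cells of the cerebellum, varied as well. In P. leucopus 5 of 6 neuronal markers had a log2 fold change above 0, with a median of 0.60 and 2 higher at an unadjusted p under 0.05, and 4 of 4 granule cell markers were above 0, with a median of 3.90 and 3 higher. The summed granule cell markers there ran from 14.3 over 31.7 to 152 CPM in young and from 19.3 over 21.7 to 1978 CPM in old animals. In P. maniculatus 2 of 8 neuronal and 0 of 3 granule cell markers were above 0, with medians of -0.16 and -1.75. The part of these cell types in the age differences was not tested.

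The study's own measure of aging is the Pc index, the correlation between the R values that a transcript has with all others in young and in old animals, so that a positive Pc means a similar pattern of coordination at both ages. Over the 41 genes with a Pc in P. leucopus the median was 0.0720 ± 0.116 (jackknife SE over animals), with 26 positive and 15 negative. The median over all 19718 transcripts was 0.150, and 72.5% were positive. Over the 40 genes in P. maniculatus the median was 0.0499 ± 0.118, with 22 positive and 18 negative, beside 0.160 and 76.7% positive over all 15262 transcripts. The medians of these genes were below those of all transcripts by less than 1 standard error in each species.

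By role, the homeostatic genes of P. maniculatus had a median Pc of -0.0573 with 7 of 20 positive, and the activation genes one of 0.137 with 13 of 17 positive. In P. leucopus the order was the other way, at 0.113 for the homeostatic and 0.00200 for the activation genes. No standard error was computed for the median of a role, so whether either order goes beyond the spread between animals was not tested. Among the 17 activation genes of each species are Il1b, Tnf, Clec7a and Cst7, which were under the filter on low counts. The medians without them were not computed. The highest Pc in P. maniculatus belonged to Olfml3 at 0.456 ± 0.169, Irf8 at 0.438 ± 0.241 and Axl at 0.426 ± 0.203, and the lowest to Spi1 at -0.246 ± 0.284. In P. leucopus Tmem119 had the highest at 0.332 ± 0.184 and Tlr4 the lowest at -0.313 ± 0.0955. The Pc of the C1q chains of P. maniculatus ran from -0.139 for C1qb to 0.136 for C1qa, and that of P. leucopus from -0.0442 for C1qa to 0.104 for C1qc. For 27 of the 40 genes in P. maniculatus and 34 of the 41 in P. leucopus the Pc lay within 1 standard error of 0.

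**Figure D5:**
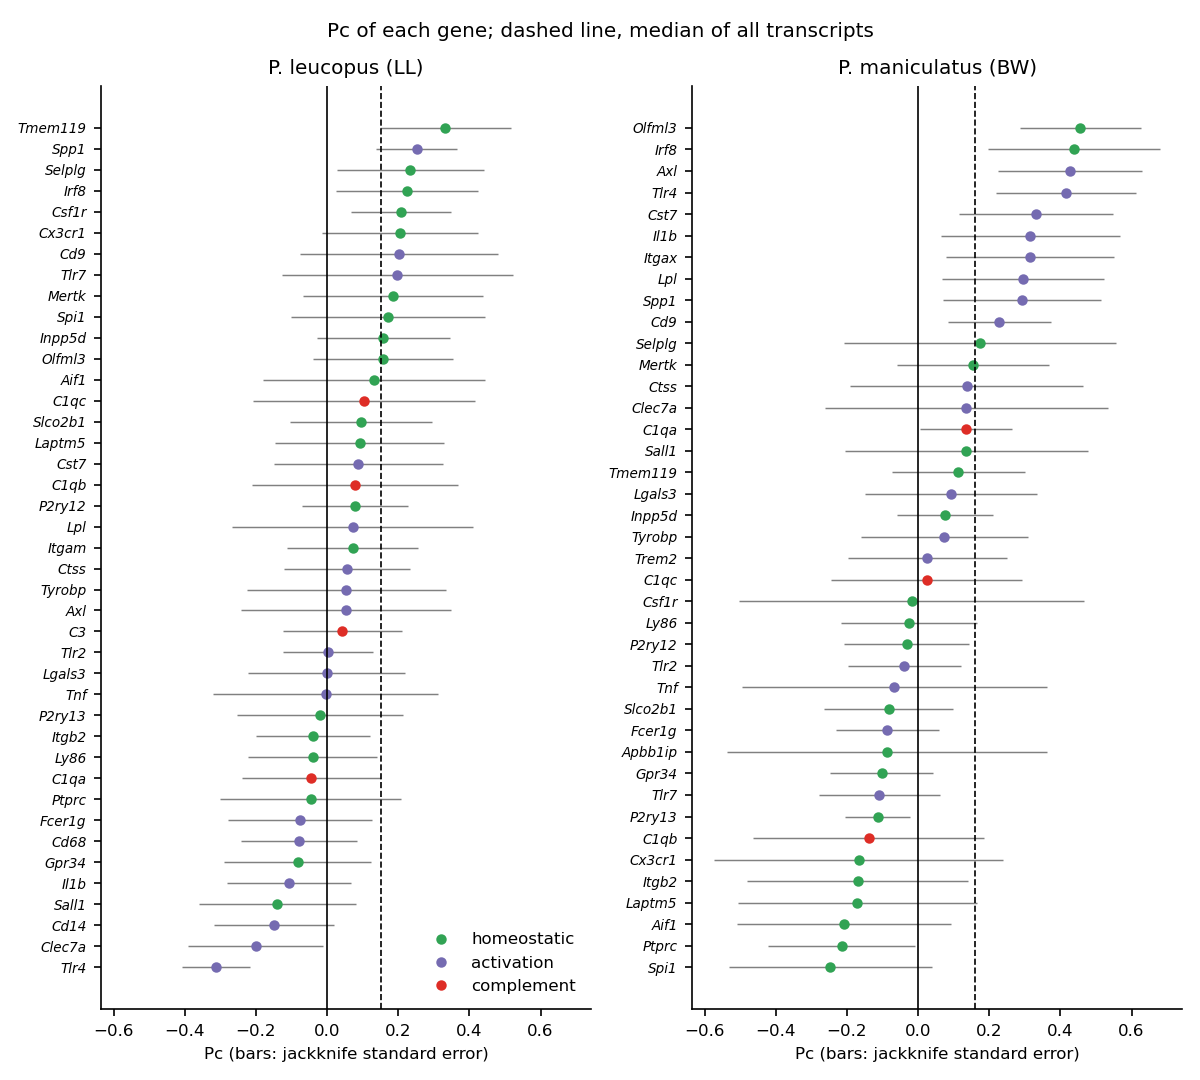
Pc of each gene in P. leucopus (left) and P. maniculatus (right), sorted and coloured by role, with jackknife standard errors over animals as bars, a solid line at 0 and a dashed line at the median of all transcripts. The bars of 34 of 41 and 27 of 40 genes reach 0, and homeostatic genes fill the lower end in P. maniculatus, with Spi1 at -0.246.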

How the data were processed

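Brain RNA of 24 animals was grouped by the stock and age in the labels, with 6 animals in each of 4 groups. Per the labels and file headers, the authors trimmed reads (Trim Galore 0.4.5), aligned them (STAR 2.7.2b) and counted them with featureCounts of Subread 1.5.3 on Pero_0.1 or HU_Pman_2.1. The deposited values are estimated counts, not normalized or filtered, in which reads with several placements were divided and the strand was ignored, so that genes sharing sequence or overlapping on opposite strands share reads. No exons of the microglial and complement genes overlapped those of another named gene. Genes without a name were not checked for overlap. The row of P. maniculatus genes without a name, a median 13.2% of the counts, was left out.

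The genes, their roles and the other lists were chosen with earlier results of these data known. Named are 25 anchor genes, any gene past the threshold and, in each species, the 4 highest and 4 lowest log2 fold changes, with the exceptions stated. Counts were rounded, filtered by edgeR's filter on low counts (minimum count 10), scaled by TMM and tested with edgeR 4.0.16 under R 4.3.3 for each species alone, with p-values adjusted over all genes tested. In simulated data this test recovered 50.5% of 2-fold changes in P. leucopus (14801 genes) and 61% in P. maniculatus (12407 genes). The changes were placed only in genes above a floor on the mean count, and genes were drawn independently, without outlying animals. Recovery for genes of lower counts, or with animals such as old animal 1 of P. leucopus, was not measured. CPM used the total on named genes, and deviations used log2(CPM + 0.5). The exact permutation tests were two-sided on mean CPM over all 924 splits. Pc was computed on CPM with Python 3.11.15, NumPy 2.4.6 and SciPy 1.17.1. Alternatives were RLE size factors, total counts, no filter, DESeq2 1.42.0, each animal left out, the unnamed row kept, the closely alike libraries as 1 animal, and, for Pc, log2(CPM + 1), Spearman's correlation, TMM-scaled CPM and a mean CPM of at least 1. Non-overlap on TMM-scaled CPM, and the number of genes at an unadjusted p under 0.05 under the alternatives, were added after the data were seen. At 5766964 to 19461818 counts a library, counting error is large for genes of a few CPM.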

Additional observations from a re-analysis of the deposited data

Results flagged for a closer look

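Where values are normally distributed, chance sets an animal apart by Dixon's criterion at 95% in about 1 in 20 sets. Among 116 sets of 6 animals examined, 16 held an animal that stood apart from the other 5. Old animal 1 of P. leucopus was the highest in 10 of these, with 127 CPM of C1qa where the next animal had 45.9, 150 CPM of C1qb, 99.98 CPM of C1qc, 465 CPM of C3, 13.97 CPM of Cd68, 5.34 CPM of Clec7a, 1.54 CPM of Cst7, 34.9 CPM of Ctss, 0.804 CPM of Il1b and 27.7 CPM of Tyrobp. The genes are not independent of each other in this animal, so the 10 values amount to a single animal set apart.

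The other 6 were spread over the groups. Young animal 5 of P. leucopus had 73.4 CPM of Csf1r, and young animal 6 had a median deviation of the activation genes of -0.60. Young animal 1 of that species had 0.283 CPM of Il1b, from 3 counts. In P. maniculatus young animal 1 had 0.556 CPM of Clec7a, old animal 3 had 0.336 CPM of Il1b and young animal 3 had 23.3 CPM of Tlr4. Clec7a had 5 counts over all young and Il1b 7 over all old P. maniculatus, so these values rest on a few reads. No gene differed between the species in its age effect at an adjusted p under 0.05 in edgeR, and 0 genes separated the ages without overlap in opposite directions.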

How the results depend on the processing

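No paired analysis was possible because the labels give animal identifiers and no replicate numbers shared between groups. With edgeR the number of microglial and complement genes past the threshold stayed at 0 in both species and in the interaction under every alternative but the loss of young animal 5 in P. leucopus, which gave 1, Spp1, among 963 of 14958 genes called, 648 of them lower. Over all genes edgeR also called 20 without old animal 3 and 1 without young animal 2 of P. leucopus. DESeq2 gave 1 in P. leucopus and 4 in P. maniculatus (Tyrobp, Ctss, Lgals3 and Ly86). With each animal left out in turn, the number higher at an unadjusted p under 0.05 lay between 1 and 23 for P. leucopus and 12 and 16 for P. maniculatus, the median log2 fold change between 0.31 and 0.78 for the former and 0.30 and 0.48 for the latter, and the median Pc between -0.00958 and 0.137 and between -0.0360 and 0.107. Over all genes the number higher at that p lay between 890 of 14938 and 1943 of 14958 for P. leucopus. For P. maniculatus it lay between 360 of 12463 and 906 of 12434. On TMM-scaled CPM 8 genes in place of 7 separated the ages in P. maniculatus. The share of all genes that did so upward was 0.275% without that scaling and was not computed with it.

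The sign turned under at least 1 alternative for the genes named next. With each animal left out, the log2 fold change in P. leucopus spanned -0.10 to 0.13 for Axl, -0.26 to 0.70 for Lpl, -0.42 to 0.056 for P2ry12 and -0.13 to 0.23 for Sall1. Over all alternatives it spanned -0.55 to 0.17 for Itgam, -0.013 to 0.81 for Ly86, -0.31 to 0.28 for P2ry13 and -0.24 to 0.18 for Tlr4. In P. maniculatus, with each animal left out, it spanned -0.20 to 0.064 for Axl, -0.18 to 0.11 for P2ry12, -0.10 to 0.21 for Sall1, -0.71 to 0.31 for Tlr4 and -0.30 to 0.099 for Tmem119, and over all alternatives -0.41 to 0.093 for P2ry13, -0.13 to 0.082 for Mertk and -0.013 to 0.30 for Selplg. Counting the alike libraries as 1 animal gave 0.019 for Axl and 0.089 for P2ry12, and for Sall1 total counts gave -0.028 and the kept unnamed row -0.0051. The causes were not tested. With 6 animals a group and 5766964 counts in the shallowest library, Cst7, Clec7a, Il1b and Tnf were tested only without the filter on low counts.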
